A study of Mus musculus with 8 samples.

Results

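Myt1l and Myt1 encode zinc-finger transcription factors of one small family, and both were read on short-oligonucleotide arrays of mouse visual cortex after the loss of 1 eye. The probe sets were chosen as all those that the platform annotation pairs with the single symbol Myt1l or Myt1. This gave 2 genes of 8251 named on the array, with 4 probe sets of 12422, 3 for Myt1l (96495_at, 96496_g_at and 96497_s_at) and 1 for Myt1 (95347_at), and all 4 passed the filter on dim probe sets. The pair of genes was taken up because 1 Myt1l probe set had stood among those with the smallest p in this same contrast. Every difference between the hemispheres for these genes is therefore given below as a description, with no test. St18, the remaining gene of the family, had 0 probe sets under its name and was not analysed here.

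The samples were visual cortex of wild-type C57Bl6 mice at postnatal day 24, 4 days after 1 eye was removed at postnatal day 20. The non-deprived group held 4 arrays of the hemisphere on the side of the removed eye. The deprived group held 4 arrays of the opposite hemisphere, the side to which most fibres of that eye cross. Both groups came from operated mice, 4 in all, so neither is an intact control. The design text speaks of pooled samples, so an array may hold 1 animal or several, and p-values rest on a spread between arrays that may be technical.

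Proteins of this family carry clusters of zinc fingers that hold zinc with 2 kinds of residue, cysteine and histidine, and bind short sites with the core AAGTT. Myt1l is expressed in neurons throughout the brain and keeps genes of other cell types silent, in part by recruiting Sin3b and histone deacetylases. It is among the factors used to turn fibroblasts into neurons, and loss of 1 copy causes a neurodevelopmental disorder in humans. Myt1 is best known from neural progenitors and the oligodendrocyte lineage.

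Probe set 96495_at of Myt1l was brighter on every deprived array than on any non-deprived array. Its MAS5 signal, a linear brightness scaled to the same trimmed mean on each array, was 1096, 964, 1002 and 803 on non-deprived arrays 1 to 4. On deprived arrays 1 to 4 it was 1612, 1725, 1722 and 1125. The groups did not overlap, but deprived array 4 lay close to non-deprived array 1. The means were 966 ± 122 and 1546 ± 285 (SD, n = 4 each), a log2 difference of signal plus pseudocount of 0.66 ± 0.17 (SE), or 1.58-fold on that scale. With the 3' over 5' ratio of the actin controls as a covariate, a ratio of 1.39 ± 0.179 on non-deprived and 1.64 ± 0.239 on deprived arrays (SD, n = 4), the difference was 0.42. Samples of the same number differed by 0.55, 0.83, 0.77 and 0.48, so all 4 pairs lay above 0. Of 7453 probe sets tested, 40 had a larger difference in this direction, and 0.55% had one at least as large.

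Probe set 96496_g_at was designed on the same GenBank record as 96495_at and did not show this separation. Its signal was 1915, 1755, 1662 and 1431 on non-deprived arrays 1 to 4 and 3097.5, 1487, 1645 and 1644 on deprived arrays 1 to 4. Deprived array 1 stood far above all others, and the other 3 deprived arrays lay within the non-deprived range. The means were 1691 ± 202 and 1968 ± 756 (SD, n = 4 each), a log2 difference of 0.16 ± 0.21 (SE). The pairs gave 0.69, -0.24, -0.01 and 0.20, of which 2 of 4 lay above 0. Without deprived replicate 1 the difference turned to -0.08. Leaving out non-deprived replicate 4 gave 0.08, and leaving out deprived replicate 2 gave 0.27.

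Probe set 96497_s_at, designed on another record, was dimmer and its groups overlapped. In this manufacturer's naming its suffix marks probes that can match more than 1 transcript. The signal was 181, 160.1, 272 and 231.5 on non-deprived arrays 1 to 4 and 206, 225, 283 and 306 on deprived arrays 1 to 4. Deprived arrays 3 and 4 were the brightest, and non-deprived array 3 lay above deprived arrays 1 and 2. The log2 difference was 0.27 ± 0.21 (SE), and 0.15 without non-deprived replicate 2. Pair differences were 0.18, 0.45, 0.05 and 0.38, above 0 in 4 of 4 pairs.

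Myt1 had 1 probe set, also dim, and its groups overlapped. The signal of 95347_at was 245.5, 294, 237 and 183 on non-deprived arrays 1 to 4 and 258, 411, 291 and 298 on deprived arrays 1 to 4. Deprived array 2 was the brightest, while deprived arrays 1 and 3 lay below non-deprived array 2. The means were 239.7 ± 45.5 and 315 ± 66.8 (SD, n = 4 each), a log2 difference of 0.37 ± 0.20 (SE), or 0.24 without deprived replicate 2. The pairs gave 0.07, 0.47, 0.28 and 0.66, above 0 in 4 of 4. The plot of signals by array shows the 4 probe sets side by side, and the plot of pair differences shows how far the pairs spread around each mean.

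**Figure D1:**
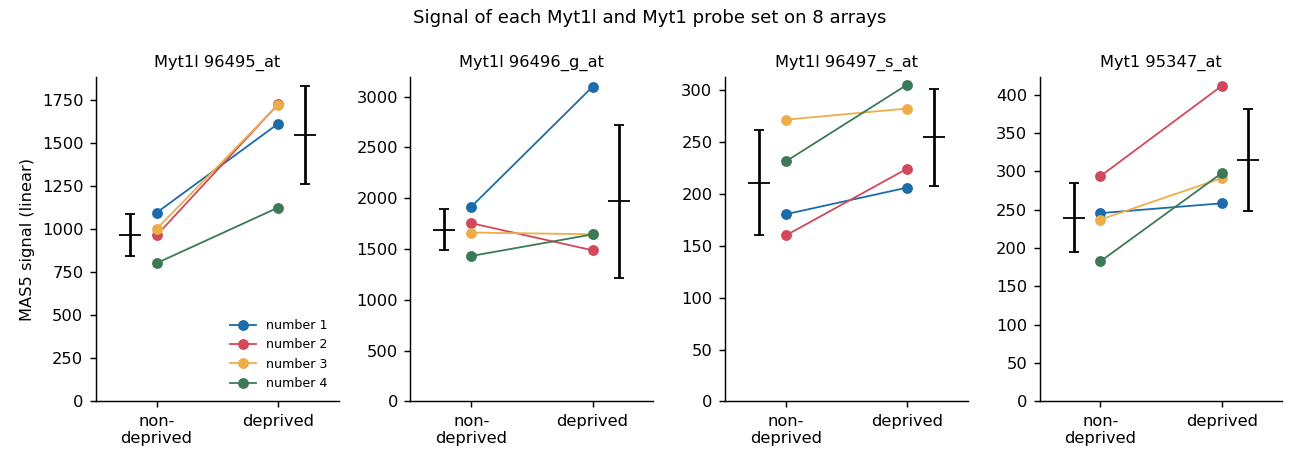
MAS5 signal (linear axis from 0) of the 3 Myt1l probe sets and the Myt1 probe set on the 4 non-deprived and 4 deprived arrays; lines join arrays of the same number, and the black bars are the mean ± SD of a group. In 96495_at the deprived arrays lie at 1125 to 1725, all above the non-deprived arrays at 803 to 1096, while in the other 3 probe sets the groups overlap.

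**Figure D2:**
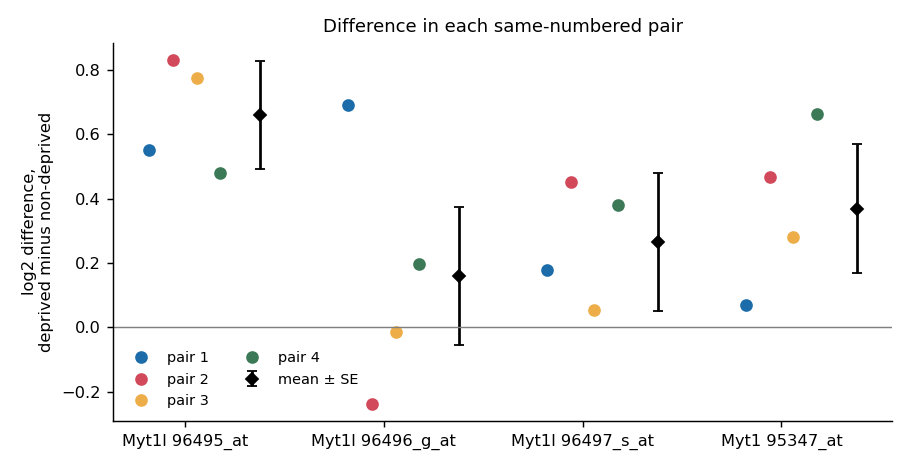
Log2 difference of signal plus pseudocount, deprived minus non-deprived, in each same-numbered pair (coloured points) with the mean over arrays ± SE from limma (black diamonds). This SE leaves the pairs out. The pairs of 96495_at lie between 0.48 and 0.83, and those of 96496_g_at between -0.24 and 0.69.

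Over all probe sets, limma with Benjamini-Hochberg adjustment called 0 of 7453 higher (0.0%) and 0 lower (0.0%), and none of the 4 probe sets of Myt1l and Myt1 was called. In limma 199 probe sets (2.67%) had an unadjusted p under 0.05, and 524 (7.03%) had one with the replicate number as a block, where again 0 (0.0%) were called. All 4 deprived arrays lay above all 4 non-deprived arrays in 92 probe sets, or 1.23%, against 1 of the 4 here, and below them in 60, or 0.805%. The difference was above 0 in 4 of 4 pairs in 8.95% of probe sets, against 3 of the 4 here, and the mean difference was above 0 in 54.9%. Since the genes were chosen from this contrast, nothing is read from these counts about Myt1l or Myt1. In these bulk samples more cells of a type and more RNA per cell cannot be told apart.

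In 2 of the 3 possible pairings, those with 96495_at, the Myt1l probe sets differed from one another by more than most probe sets of a shared gene. The difference of 96495_at was the largest of the 3. The genes were chosen from this contrast, which itself widens these gaps, so nothing is read from their ranks. The log2 differences of 96495_at and 96496_g_at lay 0.50 apart, and by pair the first minus the second gave -0.14, 1.07, 0.79 and 0.28. The 2 probe sets thus gave nearly the same difference in pair 1 and far different ones in pairs 2 and 3. There were 934 genes with 2 or more probe sets past the filter, forming 1239 probe set pairs, and the median gap was 0.15. A gap larger than 0.50 was found in 6.94% of those pairs. For 96495_at and 96497_s_at the gap was 0.39, with 12.8% of pairs larger, and for 96496_g_at and 96497_s_at it was 0.11, with 63.3% larger. All 3 Myt1l probe sets lay above 0, and 58.2% of the 1239 pairs had the same sign of difference. Pearson's r over the 8 arrays, given as a measure of likeness, was 0.34 for 96495_at with 96496_g_at, 0.18 for 96495_at with 96497_s_at and -0.32 for the remaining pair, against a median of 0.19 over all pairs. These probe sets share the same 8 arrays and partly the same target, so they are not replicates of each other. Where in the transcript the probes of each set lie was not examined here.

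**Figure D3:**
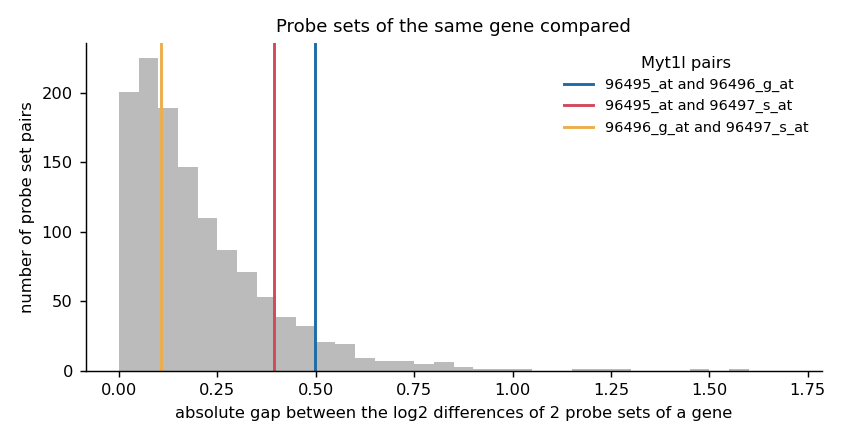
Histogram of the absolute gap between the log2 differences (deprived minus non-deprived) of 2 probe sets of the same gene, over 1239 pairs; coloured lines mark the 3 Myt1l pairs. The pair of 96495_at and 96496_g_at lies at 0.50, to the right of most pairs, whose median is 0.15.

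How Myt1 varied with Myt1l over arrays depended on the Myt1l probe set. Pearson's r of Myt1 with 96495_at was 0.69 over the 8 arrays, and 0.40 after the mean of each group was taken away. With 96496_g_at the values were -0.08 and -0.30, and with 96497_s_at 0.02 and -0.39. All are descriptions over arrays that share 2 group means. Among 6748 probe sets of other genes, those most like the brightest Myt1l probe set, 96496_g_at, were Clcn4, a chloride transporter gene (r = 0.94 over 8 arrays), Shd (0.94), the proteasome subunit gene Psmc1 (0.93), and the transcription factor genes Nfib (0.93) and Mafg (0.92). In each of these 5, deprived array 1 was the brightest array, as it was in 96496_g_at. The most opposite were Ercc2, a DNA repair helicase gene (-0.97), the casein kinase gene Csnk1g2 (-0.95) and Rgs3, a regulator of G-protein signalling (-0.95), where deprived array 1 was the dimmest. For Myt1 the most like were Faf1 (0.95), the cholesterol transporter gene Abca1 (0.94), Spef1 (0.94), Serac1 (0.93) and Igsf10 (0.93), and the most opposite were the ferritin heavy chain gene Fth1 (-0.96), Sra1 (-0.95) and Prkag1 (-0.94). Each value belongs to 1 probe set and need not hold for the gene. The Faf1 probe set had r = -0.05 and -0.32 with other Faf1 probe sets. For Fth1 and Clcn4 such values were -0.002 and 0.13, and for Nfib, Mafg and Ercc2 0.92, 0.90 and 0.69.

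The bases before the start are shown as a description only. Probe sets 96495_at and 96497_s_at of Myt1l and that of Myt1 lay above 0 in every pair, but 96496_g_at in 2 of 4. No joint rise of the genes is read from this, since they were chosen from this contrast. For each gene the window is the 250 bases before the most upstream start in RefSeq's promoter set for GRCm38.p6, which lists 5 starts for Myt1l and 3 for Myt1, both on the plus strand. The RefSeq gene table places the start of Myt1l upstream of its window, which thus lies inside the annotated gene, while the Myt1 window ends just before that gene's start. The Myt1l window is chr12:29528134-29528383 and the Myt1 window chr2:181763082-181763331. Capitals mark AAGTT, the core bound by this family, searched on both strands.
Myt1l: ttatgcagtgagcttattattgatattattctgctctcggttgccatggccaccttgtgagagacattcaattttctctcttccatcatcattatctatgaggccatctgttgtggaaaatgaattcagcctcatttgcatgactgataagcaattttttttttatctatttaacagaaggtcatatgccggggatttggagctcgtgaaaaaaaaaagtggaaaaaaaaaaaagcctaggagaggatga
Myt1: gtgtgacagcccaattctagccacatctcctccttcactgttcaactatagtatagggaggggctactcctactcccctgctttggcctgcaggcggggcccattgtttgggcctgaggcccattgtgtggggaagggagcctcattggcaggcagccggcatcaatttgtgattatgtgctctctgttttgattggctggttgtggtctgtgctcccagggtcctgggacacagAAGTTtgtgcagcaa
AAGTT occurred 0 times in this Myt1l window and 1 time in this Myt1 window. Over the windows of all listed starts, 2 of the 5 of Myt1l held it, with 1 and 2 matches, and 3 of the 3 of Myt1, with 1 match each. Of all genes' windows, 35.3% of 32851 held it. The cyclic AMP response element TGACGTCA (1.55% of windows) and the AP-1 site TGANTCA (6.75%) were in neither, searched in the same way. These are matches of letters only, since binding was not measured in these samples.

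Genes of a fixed list of repressors and corepressors did not pass the test in either direction. Whether each of them works with Myt1l was not examined here. Of 22 genes in this list 15 were measured, and 0 rose and 0 fell in limma adjusted over all probe sets. Of these, 7 lay above 0 and 8 below, with a median log2 difference of -0.01 against 0.02 for all probe sets. After quantile scaling 5 of the 15 lay above 0, and the median was -0.04. Sin3b, a scaffold of the histone deacetylase complex that Myt1l recruits, had a mean signal of 642 ± 24.4 on non-deprived and 560.4 ± 108 on deprived arrays (SD, n = 4). The histone-binding subunit gene Rbbp7 had 2739 ± 324 and 2472 ± 225. Chd4, the helicase of the NuRD complex, had 2634 ± 867 and 3180 ± 876 by a probe set whose suffix marks probes shared within a gene family. Another Sin3b probe set past the filter had a log2 difference 0.27 away from that of the one given, with r = -0.41. The gap is given without direction, so whether that probe set also lay below 0 is not shown.

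Genes of the Notch pathway, in which Myt1l is known to repress Hes1 and, in Xenopus, Myt1 to counter lateral inhibition, did not pass the test in either direction. Of 28 genes 16 were measured, with 0 called, 12 above 0 and 4 below, and a median of 0.12, where 54.9% of all probe sets lay above 0 with a median of 0.02. Notch2, a receptor, had a mean signal of 139.6 ± 84.3 on non-deprived and 283 ± 137 on deprived arrays (SD, n = 4). The repressor gene Hes3 had 111 ± 28.4 and 201 ± 99.7, and Numb, a gene for an inhibitor of Notch, 569 ± 66.1 and 449.8 ± 86.9. Their groups overlapped, and the adjusted p in limma was 0.995 for each. Notch2 was dim on non-deprived arrays 1 and 4, at 68.4 and 75.2, where the filter level stands for a signal of 110. Its pairs ran from -0.47 to 2.42. Hes3 lay below the filter level in non-deprived cortex and passed it only through the deprived group, so nothing is read from its difference. The list's count above 0 and its median include Hes3, so nothing is read from them either. After quantile scaling 10 of the 16 lay above 0, and the median was 0.05. Hes1 had mean signals of 359 on non-deprived and 453 on deprived arrays, a log2 difference of 0.33 ± 0.21 (SE). Whether Myt1l plays a part in this was not tested. Another Numb probe set had a log2 difference 0.34 away from that of the one given, with r = 0.16. This gap too is given without direction.

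Wnt pathway genes, which act in patterning and neurogenesis, also did not pass in either direction. Of 36 genes 24 were measured, with 0 called, 19 above 0 and 5 below (54.9% of all probe sets lay above 0), and a median of 0.09. After quantile scaling 15 of the 24 lay above 0, with the same median of 0.09. Fzd3, a Wnt receptor gene, had a mean signal of 319 ± 79.0 on non-deprived and 472 ± 88.3 on deprived arrays (SD, n = 4). Axin2, a feedback inhibitor gene that Wnt signalling itself induces, had 154 ± 29.1 and 226 ± 48.6. The receptor gene Fzd9 had 114 ± 59.8 and 166 ± 20.2. None passed, at an adjusted p of 0.995 in limma, and the groups of each overlapped. Fzd9, like Hes3, had a mean log2 value below the filter level in non-deprived cortex (6.89, and 6.96 for Hes3, against 6.97) and passed only through the deprived group, so nothing is read from its difference. Nor is anything read from the Wnt list's count above 0 and median, which include Fzd9.

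Among proneural and neurogenic factors, the class that acts with Myt1l when neurons form, 15 of 30 genes were measured, with 10 above 0 and 5 below, a median of 0.13, and 0 called. Neurod2, a factor of excitatory cortical neurons, had a mean signal of 1419.7 ± 245 on non-deprived and 1136 ± 305 on deprived arrays (SD, n = 4). Sox4 had 834 ± 142 and 731 ± 59.9, and Pax6, a progenitor factor, 163 ± 33.2 and 205 ± 64.2. Another Sox4 probe set had a log2 difference 0.49 away from that of the one given, with r = -0.23. The median of the factors was 0.06 after quantile scaling. Of 27 neuronal differentiation genes 24 were measured, with 10 above 0 and 14 below, a median of -0.05, and 0 called. Their median was -0.02 after quantile scaling and -0.01 after cyclic loess, where 12 of the 24 lay above 0. The RNA-binding protein gene Elavl3 had 825 ± 59.1 and 987 ± 132, and Stmn2, which regulates microtubules in growing neurites, 5132 ± 406 and 4648 ± 528. Tubb3, neuronal beta-tubulin, had 9897 ± 1475 and 8365 ± 1402 by a probe set shared within its family. Other probe sets of Stmn2 and Tubb3 had log2 differences 0.15 (r = -0.16) and 0.08 (r = 0.54) away from those of the ones given. These gaps and that of Sox4 are given without direction. The plot of list genes shows the spread of all members around these medians.

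**Figure D4:**
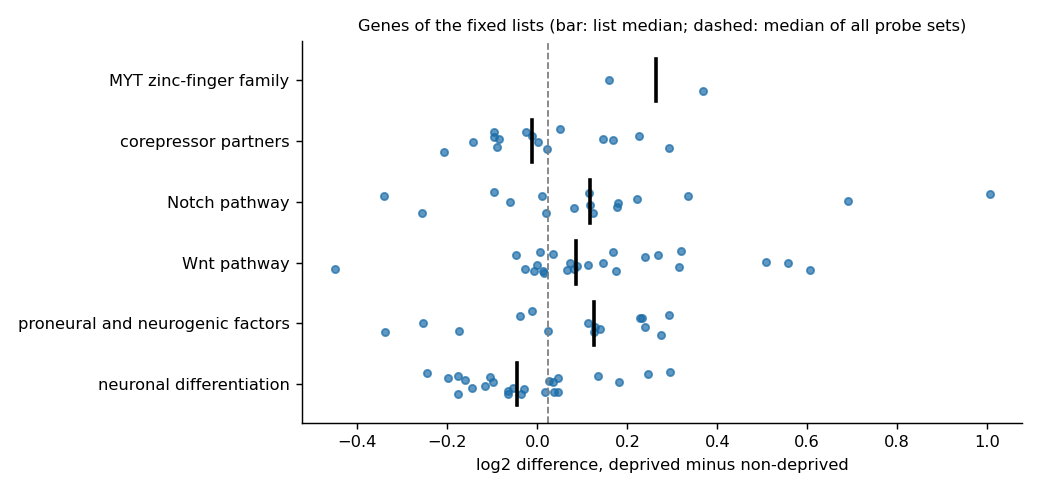
Log2 difference, deprived minus non-deprived, of each measured gene (points, spread vertically at random) in the 6 fixed lists; the bar is the list's median and the dashed line the median of all probe sets, 0.02. The medians run from -0.05 for neuronal differentiation genes to 0.26 for the MYT family, which holds only Myt1l and Myt1.

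Cell type markers and array measures are given beside these values, and their part in the Myt1l and Myt1 values was not tested. The 5 measured neuron markers, Snap25 the brightest, had summed signals of 29010 to 33252 on non-deprived and 27658 to 32526 on deprived arrays. Only 2 of 6 oligodendrocyte precursor markers were measured, and Pdgfra, the brightest, had 1348 ± 252 and 1347 ± 173 (SD, n = 4). Their sums were 1939 to 2346 and 1953 to 2438. Sums of 6 myelin markers, led by Mbp, were 17619 to 24367 and 19177 to 22134. Markers of astrocytes (7 measured, led by Aldoc), microglia (7, C1qc), endothelium and mural cells (8, Cldn5), thalamus (5, Lef1) and cortical layers (5, Tbr1) also overlapped between the groups in their sums, and 0 were called. None of the 5 choroid plexus genes was measured above the filter. Tbr1, a factor of deep cortical layers and so a check of the labelled tissue, had 5146 ± 1835 and 4838 ± 699.

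The 10th percentile of signal was 13.4 ± 0.678 on non-deprived and 17.2 ± 2.70 on deprived arrays (SD, n = 4). The two-sided exact permutation p was 0.0286, the smallest possible with 70 assignments. That permutation treated the arrays as unpaired, so it ignores the link between arrays of the same number. Mean signals of the dimmer probe set 96497_s_at were 211 and 255. Actin controls are placed at both ends of that transcript, and their 3' over 5' signal ratio, which rises as RNA degrades, was 1.25 to 1.63 on non-deprived and 1.33 to 1.91 on deprived arrays. With that ratio as a covariate the log2 difference of 96497_s_at was 0.47 and that of Myt1 0.19, beside the 0.42 of 96495_at. With the Gapdh ratio, which was 0.856 to 0.977 on non-deprived and 0.801 to 0.882 on deprived arrays, 96496_g_at had 0.25 and 96497_s_at 0.14. The plot by processing setting shows that 96495_at lay highest of the probe sets with a value in all settings except with the actin ratio.

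**Figure D5:**
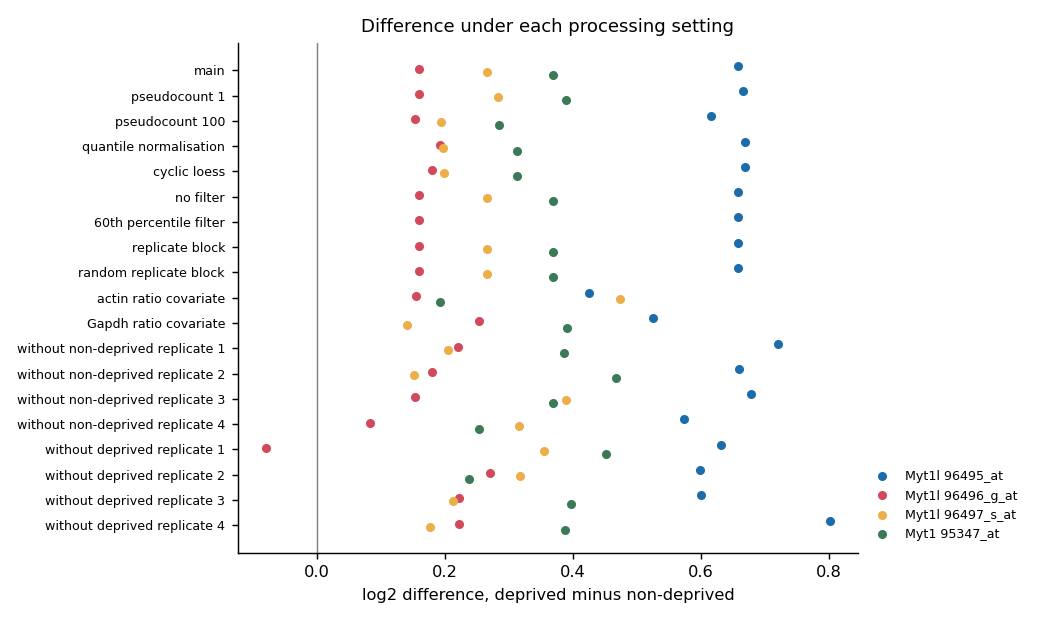
Log2 difference, deprived minus non-deprived, of the 4 probe sets (colours) in the reported fit (main) and under each alternative setting. Values of 96495_at run from 0.42 to 0.80, and 96496_g_at lies below 0, at -0.08, without deprived replicate 1.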

How the data were processed

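Visual cortex RNA (about 10 µg of total RNA per sample, per the labels) was measured on 8 arrays. The authors deposited linear signal intensity for each probe set, computed with MAS5 per the submitters' processing notes, with version and settings not stated. Columns were matched to samples by name, and 0 such columns stayed unused. Each array was rescaled to a common mean that leaves out 2% of values at either end. After 66 control probe sets were dropped, signals were transformed as log2(signal + 15.3), where 15.3 is the 10th percentile, so changes of dim genes come out too small. The filter kept 7453 of 12422 probe sets, those with a mean log2 value over the 40th percentile. A single gene symbol was given for 10833 probe sets, several for 396 and none for 1193. By Entrez identifier, 10817 symbols were brought up to date with the GRCm38.p6 gene table. That table served for names and for the gene starts of Myt1l and Myt1 set beside their windows.

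The test of group differences was limma 3.58.1 under R 4.3.3 (lmFit, then eBayes allowing an intensity trend). It was two-sided, adjusted by Benjamini-Hochberg over all probe sets kept, with a threshold of 0.05, and was tested on simulated data first. All differences are deprived minus non-deprived. A list gene was stood for by its probe set with the highest mean. The genes, lists and settings were chosen with earlier results of these data known. Named were every probe set of the 2 genes, Hes1 as a known target, and the 3 genes of each pathway list with the smallest p. Also named were the 5 most like and 3 most opposite probe sets by Pearson's r over the 8 arrays. The brightest gene of each marker list was named too. As a check of pairing, the deviations of same-numbered samples from their group means had correlations of 0.16 to 0.42, all above the limit of 0.1 set for treating numbers as pairs, and those of other samples -0.27 to 0.12. The reported fit and its SEs nonetheless leave the pairs out, as the labels do not state that a number marks an animal. The number of arrays limits the precision. Plots were made in matplotlib 3.10.9 with Python 3.11.15.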

Additional observations from a re-analysis of the deposited data

Results flagged for a closer look

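Within a group of 4 arrays, 1 array stood far from the other 3 in 9 of 102 groups examined. Chance would give about 1 in 20 (5.1) if the groups were independent and not picked by their values. Many were picked for likeness to a Myt1l or Myt1 probe set, so nothing is read from 9 against 5.1. Each value below is the gap to the nearest array divided by the range of the 4. In 96496_g_at of Myt1l the share was 0.902, set by the high deprived replicate 1. The same array was highest in Shd (0.859), Nfib (0.8295) and Mafg (0.969) and lowest in Ercc2 (0.833), all of which were named for their likeness to 96496_g_at. Deprived replicate 2 was highest in Tbr1 (0.952) and Igsf10 (0.855). Deprived replicate 4 was lowest in Cdk18 (0.852) and highest in Junb (0.858), by probe sets named for their likeness to 96495_at.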

How the results depend on the processing

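Over 18 alternative settings (pseudocount, scaling, filter, block, RNA ratios, each array left out) limma called 0 probe sets in each, and 0 genes of the lists. The number at an unadjusted p under 0.05 was 199 in the reported fit, 524 with the replicate block, 535 with the random block, 491 of 12422 with no filter, 97 of 4969 with a stricter filter, and 133 (without non-deprived replicate 4) to 429 (without deprived replicate 4) with 1 array left out. The block changed no call and leaves the mean differences as they are. With the replicate block the SE was 0.11 for 96495_at, 0.15 for 96496_g_at, 0.17 for 96497_s_at and 0.16 for Myt1. Each was smaller than in the reported fit, which leaves the pairs out. With 1 array left out, 96495_at ran from 0.57 to 0.80, 96496_g_at from -0.08 to 0.27, 96497_s_at from 0.15 to 0.39 and Myt1 from 0.24 to 0.47. Under the other settings they ran from 0.42 to 0.67, 0.15 to 0.25, 0.14 to 0.47 and 0.19 to 0.39. The stricter filter left out 96497_s_at and Myt1. The cause of these shifts was not tested. With 4 arrays per group, differences within the spread of these arrays could not be resolved.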

Other observations

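The probe sets most like 96495_at of Myt1l over the 8 arrays were looked up after its values had been seen, so they partly restate the group difference. Among 6748 probe sets of other genes the highest Pearson's r belonged to Hs1bp3 (0.97), Ssr3 (0.95), Cdk18 (0.95), Nrbp1 (0.94) and the cohesin loader gene Nipbl (0.94). The most opposite were Junb (-0.97), Atp5c1 (-0.95) and Ier2 (-0.95). Each value belongs to a single probe set and need not hold for the gene. Other probe sets of Ssr3 had r = 0.24 and 0.67 with the one used here. For Junb and Atp5c1 such values were 0.82 and 0.86. Junb and Ier2 are immediate-early genes that neurons induce with activity, and Atp5c1 encodes a subunit of the mitochondrial ATP synthase. After the mean of each group was taken away, r was -0.93 for Junb, -0.83 for Atp5c1 and -0.81 for Ier2. These genes were picked by an r that already includes this part, so nothing is read from these values.

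Junb had a signal of 1331, 1366, 1515 and 1648 on non-deprived arrays 1 to 4 and 833, 823, 866 and 1129 on deprived arrays 1 to 4. Deprived array 4, the dimmest of its group in 96495_at, was the brightest of its group in Junb, and non-deprived array 4, the dimmest of all in 96495_at, was the brightest of all in Junb. Ier2 had 812, 1034, 795 and 1105 on non-deprived and 543, 612, 534 and 721 on deprived arrays 1 to 4, again with array 4 the brightest of each group. For 96496_g_at, the other probe set on the same record, these genes were not among the most opposite. The values come from the same 8 arrays, are extremes picked from 6748 probe sets, and carry no p.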
